A study of Mus musculus with 2 samples.

Results

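The transcripts of the D cyclins, their kinases and the inhibitors that hold them back were compared between pancreatic islets of wild-type and PERK knockout mice. The set held 10 genes (Ccnd1, Ccnd2, Ccnd3, Cdk4, Cdk6, Cdkn1a, Cdkn1b, Cdkn2c, Rb1 and Btg1), chosen by name, and all 23 probe sets that the platform annotation assigns to these symbols, of 12393 genes and 22690 probe sets in all. That choice was made with earlier results of these data known. The kinase PERK (gene Eif2ak3) sits in the membrane of the endoplasmic reticulum and phosphorylates the translation initiation factor eIF2 alpha. There was 1 Affymetrix mouse 430A array per genotype. Both labels give islets freed with collagenase P at 2 days after birth. The wild-type label adds mixed strains and mixed sexes, while the strain, the sex and the knockout allele of the other animals, and any pooling of pups, were not stated in the labels.

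Entry into the cell cycle from G1 is set by the D cyclins, which bind the kinases Cdk4 or Cdk6 and start the phosphorylation of the retinoblastoma protein. Phosphorylated retinoblastoma protein releases E2F transcription factors, which switch on the genes of DNA replication. INK4 inhibitors such as Cdkn2c bind Cdk4 and Cdk6 directly, while Cdkn1a (p21) and Cdkn1b (p27) bind complexes of a cyclin and its kinase. In mouse beta cells, cyclin D2 and Cdk4 are known to be needed for growth of the beta cell mass after birth. Phosphorylation of eIF2 alpha by PERK is known to lower the synthesis of cyclin D1 protein. An array measures the transcript and not the protein.

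Some members' promoters hold motifs of factors that read or drive this switch, and 3 stretches are shown, picked because they held matches. RefSeq promoter windows of build GRCm38.p6 were found for 7 of the 10 members, in 10 windows, and the 250 bases before each start site were searched. The E2F site was taken as TTTNNCG on either strand, with C or G at each N, the E-box as CACGTG, and the p53 half-site by its 10-base consensus. The last 2 motifs read the same on both strands. Cdk4 at chr10:127063285-127063534 on the plus strand is shown with its E-boxes in capitals, Cdkn2c at chr4:109665555-109665584 on the minus strand with its E2F site in capitals, and Cdkn1a at chr17:29090729-29090978 on the plus strand with its p53 half-sites in capitals, each 5′ to 3′ along the gene.
Cdk4: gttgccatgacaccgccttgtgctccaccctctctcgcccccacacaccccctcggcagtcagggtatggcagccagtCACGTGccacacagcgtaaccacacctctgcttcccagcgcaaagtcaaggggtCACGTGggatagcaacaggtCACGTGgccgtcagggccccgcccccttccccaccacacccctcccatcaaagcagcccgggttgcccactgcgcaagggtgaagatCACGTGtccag
Cdkn2c: taatactttttcTTTCGCGgtgttgtctga
Cdkn1a: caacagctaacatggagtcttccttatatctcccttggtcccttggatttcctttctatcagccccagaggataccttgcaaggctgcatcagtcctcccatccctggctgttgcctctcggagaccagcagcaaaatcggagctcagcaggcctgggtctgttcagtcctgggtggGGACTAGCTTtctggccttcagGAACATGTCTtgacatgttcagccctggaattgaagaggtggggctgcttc

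Cdk4 held 4 E-boxes, the binding motif of Myc and related factors, and of the 7 members with a window Cdk6 was the only other to hold any. Of all 32851 promoter windows, 6.02% held at least 1 E-box and 7 held 4 or more. Among the members with a window, only Cdkn2c had an E2F site. It lay before the start site of a shorter transcript, inside the gene, and 5.51% of all windows held such a site. Cdkn1a alone among them had p53 half-sites, with 2 in the window of its most upstream start site, and 7.13% of all windows held at least 1. A match describes these letters and not the binding of a factor in islets.

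The targeted gene was checked against the labels. On the brightest Eif2ak3 probe set the wild-type signal was 117.7 and the knockout signal 58.7, 2.01-fold lower. Neither of the other 2 rose above the floor. Which part of the gene the allele removes was not stated in the labels, so a probe set outside that part would check nothing. Signals are in arbitrary intensity units, and the floor was put at 39.8, the 40th percentile over both arrays. Measured genes are those whose brightest probe set exceeded this floor in wild type and knockout alike, 8133 in all. Their log2 ratios, knockout over wild type throughout, had a median of 0.03.

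Since each genotype had 1 array, no replicate spread and no test exist, and each ratio compares these 2 libraries. The measure of error below is the disagreement between probe sets of 1 gene, given as an SD per probe set on the log2 scale over 2597 genes. With these genes split into 4 equal classes of brightness, it was 0.29 in the dimmest, then 0.28, 0.25 and 0.19 in the brightest. It was taken from the 2 brightest measured probe sets of each gene, and covers only error that differs between them. Any real difference between the transcript forms they read is included. Effects shared by a whole array, animals, litters and RNA preparations are not covered.

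Cdkn2c was the only member at least 1.5-fold apart, and Ccnd3 was the member with the highest ratio. Of the 9 measured members, 1 was lower by at least 1.5-fold in the knockout and 0 were higher by that much. Over all measured genes, 2.95% were that much lower and 4.19% that much higher. This background moved with the scaling, from 240 lower and 341 higher to 362 lower and 214 higher when both arrays were centred on their median, to 293 and 264 under quantile normalisation, and to 293 and 255 under loess. No measured member was 2-fold apart in either direction, against 0.652% of all measured genes lower and 0.516% higher. Over the 9 measured members the median log2 ratio was -0.07, against 0.03 over all measured genes, and 5 of the 9 lay below that overall median. Of the 23 probe sets, 20 were above the floor on both arrays and 3 were at the floor on both. Of the 20, 12 had a ratio smaller than their own probe set error.

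**Figure D1:**
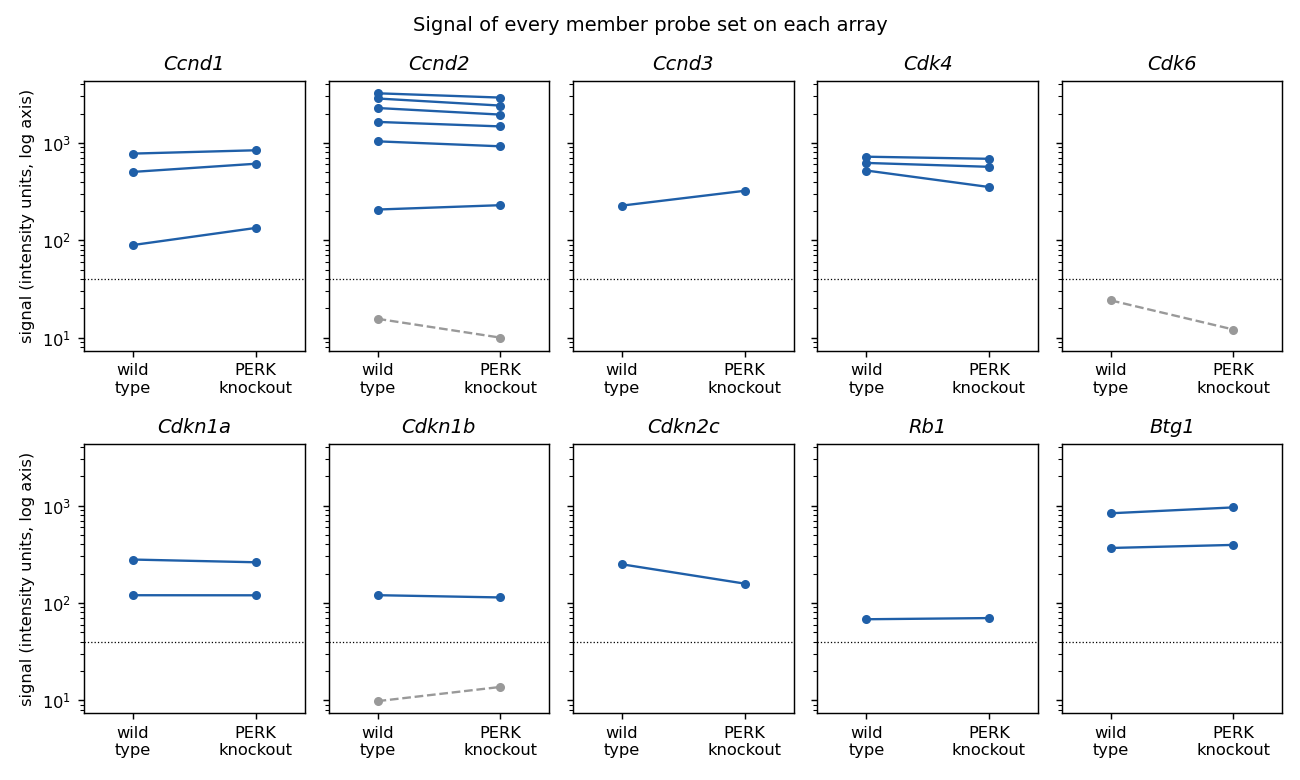
Signal of each of the 23 member probe sets on the wild-type and the PERK knockout array, on a log axis in intensity units, with 1 line per probe set and a panel per gene. Blue lines are measured probe sets, grey dashed lines are at the floor on both arrays, and the dotted line is the floor at 39.8; Cdkn2c is at 249.3 and 158.0 and Ccnd3 at 226.9 and 321.9, while most other lines are close to level.

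The D cyclins did not share a direction. Ccnd1, the D cyclin most widely induced by growth signals, had a higher signal in the knockout on all 3 of its probe sets. Its brightest probe set, 1448698_at, went from 776.1 in the wild type to 839.4 in the knockout, a log2 ratio of 0.11 that is smaller than the probe set error of 0.19. A second, 1417420_at, went from 503.4 to 610.3 (log2 ratio 0.28). The dimmest, 1417419_at, went from 89.3 to 133.7 (log2 ratio 0.58), just under the 1.5-fold limit. The size of the Ccnd1 ratio therefore depended on the probe set, with a mean of 0.32 and an SD of 0.24 over the 3, and only its direction was shared.

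Ccnd2, the D cyclin on which neonatal beta cell growth is known to depend, was slightly lower on 5 of its 6 measured probe sets. The brightest, 1416122_at, went from 3230.4 to 2919.8 (log2 ratio -0.15). The next went from 2857 to 2416.7 (log2 ratio -0.24) and from 2280.5 to 1952.7 (log2 ratio -0.22). Those 3 and the other bright ones, 1455956_x_at (1641.6 to 1476.5) and 1448229_s_at (1036.8 to 922.4), lay within a narrow band of ratios from -0.24 to -0.15. The dimmest measured probe set, 1416123_at, stood on the other side of equality, going from 206.7 to 229.0 (log2 ratio 0.15). The seventh, 1416124_at, was at the floor on both arrays (15.6 in the wild type, 10 in the knockout). The mean over the 6 measured was -0.13. Their SD of 0.14 was less than the error of 0.19, which holds for a single bright probe set and not for a mean. These probe sets read the same 2 RNA preparations, so their agreement says nothing about other animals.

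Ccnd3, the third D cyclin, prominent in blood cells among other tissues, had a single probe set. Its signal went from 226.9 to 321.9 (1.42-fold higher, log2 ratio 0.50), 2.00 times the error of 0.25 at that brightness. Of the 8133 measured genes, 537 had a ratio as high or higher. The ratio of Ccnd3 exceeded that of Ccnd2 by 0.65 on the log2 scale, with a probe set error of 0.32 for the difference, and that of Ccnd1 by 0.39, within the range of the Ccnd1 probe sets.

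**Figure D2:**
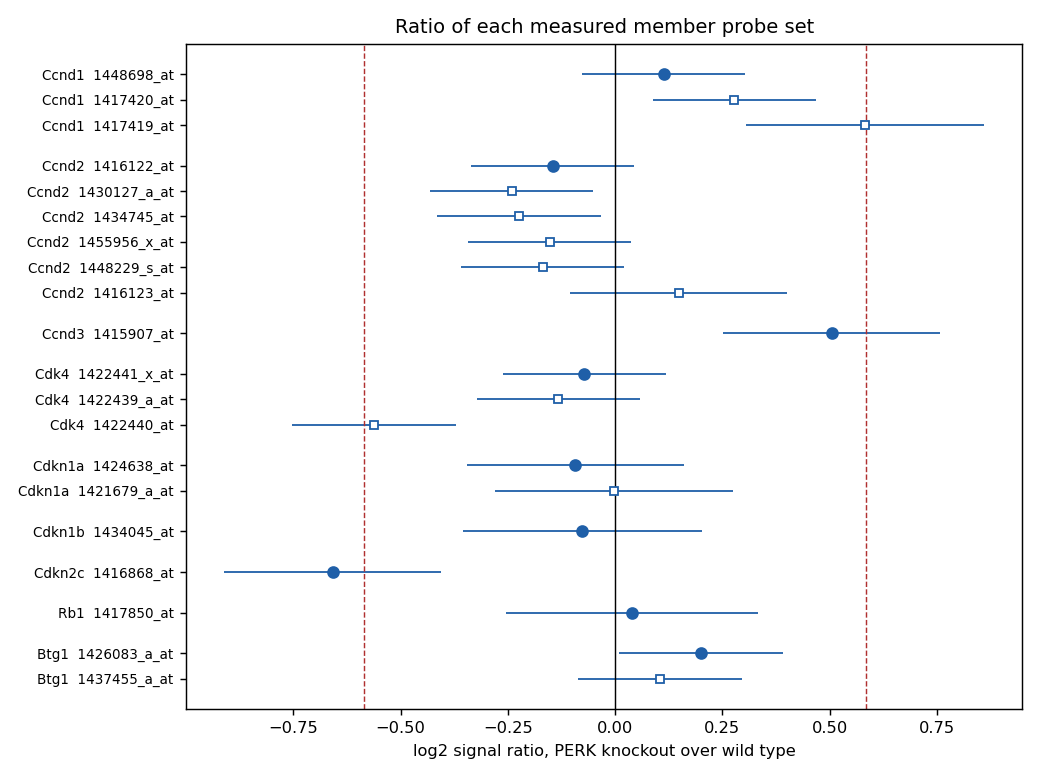
Log2 signal ratio of knockout over wild type for the 20 measured member probe sets, with the brightest of each gene as a filled circle and the others as open squares. Bars are the SD between probe sets of 1 gene at the same brightness and the dashed lines mark 1.5-fold; Cdkn2c alone lies past a dashed line, and the 3 Cdk4 probe sets lie on 1 side of equality at unequal distances.

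Cdk4, the catalytic partner of the D cyclins in beta cells, was lower on all 3 probe sets, by unequal amounts. The brightest, 1422441_x_at, whose name marks probes that can bind other transcripts, went from 721.0 to 686.1 (log2 ratio -0.07). The second, 1422439_a_at, went from 622.2 to 567.7 (log2 ratio -0.13). The third, 1422440_at, went from 519.9 to 352.1 (log2 ratio -0.56, 1.48-fold lower), 2.95 times the error at that brightness. The first 2 ratios were within the probe set error and the third was not, and which stretch of the transcript each probe set reads was not analysed here. Cdk6, the other kinase of D cyclins, had a single probe set at the floor on both arrays (24.1 and 12.1), so it has no fold.

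Among the 3 inhibitors of the member set, Cdkn2c had the lowest ratio, and Cdkn1a and Cdkn1b were close to level. Cdkn2c encodes p18, the INK4 inhibitor whose loss is known to enlarge islets in mice. Its single probe set, 1416868_at, went from 249.3 in the wild type to 158.0 in the knockout (1.58-fold lower, log2 ratio -0.66), 2.60 times the error at that brightness. Only 176 of the 8133 measured genes, 2.16%, had a ratio as low or lower. On the log2 scale it lay 0.57 below Cdkn1a and 0.58 below Cdkn1b, where the errors of the differences were 0.36 and 0.38. No second probe set of Cdkn2c was found, so its ratio has no check within these arrays.

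Cdkn1a, the p53 target p21, was close to level on both of its probe sets. The brighter went from 279.0 to 261.6 (log2 ratio -0.09) and the dimmer from 120.0 to 119.8 (log2 ratio -0.00). Cdkn1b, p27, whose level is set largely by protein turnover, went from 120.1 to 113.9 (log2 ratio -0.08) on 1 probe set and was at the floor on the other (9.8 and 13.7). These 3 measured probe sets all had ratios under their probe set error. A true change smaller than that error could not be seen here.

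Rb1, the retinoblastoma protein itself, had a single probe set close to the floor, with a signal of 68.0 in the wild type against 69.9 in the knockout. Its log2 ratio of 0.04 was within an error of 0.29, and its sign turned, to -0.06 when both arrays were centred on their median and to -0.05 under quantile normalisation or loess. Btg1, an antiproliferative factor that recruits the CCR4-NOT deadenylase, was slightly higher on both probe sets. The brighter went from 833.6 to 957.8 (log2 ratio 0.20, against an error of 0.19) and the dimmer from 366.9 to 394.5 (log2 ratio 0.10). The Btg1 ratio lay 0.86 above that of Cdkn2c on the log2 scale, with an error of 0.32 for the difference.

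Between the 9 measured members there were 36 pairs, and in 4 the ratios differed by more than 2 probe set errors. The same share over pairs of all measured genes was not computed, so this count cannot be called high or low. The log2 ratios of all measured genes had an SD of 0.33. Those 4 were Ccnd3 against Ccnd2, and Cdkn2c against Ccnd3, Ccnd1 and Btg1. The widest was Ccnd3 against Cdkn2c, at 1.16 on the log2 scale with an error of 0.36. All 4 thus involve the 2 members with the highest and the lowest ratio, and each of these was read by a single probe set.

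**Figure D3:**
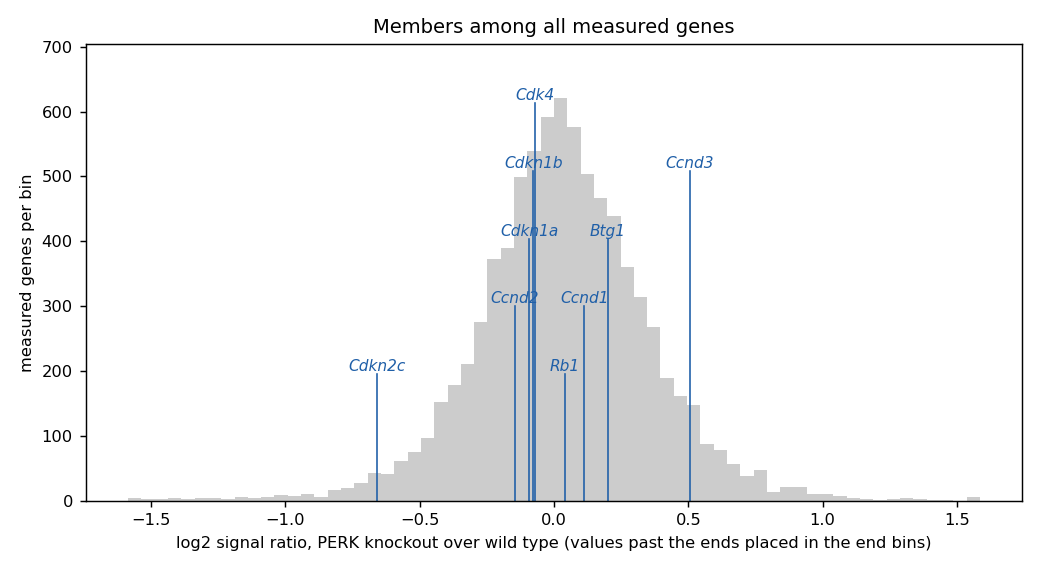
Number of measured genes per bin of log2 signal ratio, knockout over wild type, for all 8133 measured genes (grey), with each of the 9 measured members marked by a blue line whose height carries no value. Of the members, 7 lie in the central mass, Cdkn2c at -0.66 lies in the lower tail and Ccnd3 at 0.50 on the upper shoulder.

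The wider G1 network was described from 8 lists of genes, and most of the genes past 1.5-fold were S phase targets of E2F. The lists were chosen with earlier results of these data known, so their counts are a description and not a test. Of 25 measured E2F targets of S phase, 13 were at least 1.5-fold lower and 0 were higher by that much, against 2.95% and 4.19% of all measured genes, and the median log2 ratio was -0.59. The lowest were Ccna2, cyclin A2 (329.0 to 114.3, 2.88-fold lower, with a log2 ratio of -1.12 on its second probe set), and Rrm2, the small subunit of ribonucleotide reductase (2.65-fold lower, with -1.46 and -0.37 on its others). Next were Mcm2, of the replication helicase (438.6 to 177.8, 2.47-fold lower, with -0.40 on its second), and Uhrf1, which keeps up DNA methylation (2.10-fold lower). The other 7 lists together held 75 measured genes, of which 1 was at least 1.5-fold lower and 3 were higher by that much, with a median of 0.01. In bulk islets, fewer cells in S phase and less of these transcripts per cell cannot be told apart.

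By the brightest probe set of each gene, Cdkn2c alone among the members lay well within the ratios of the S phase targets. The log2 ratios of Ccnd1, Ccnd3, Rb1 and Btg1 were above those of all 25 measured S phase targets. Those of Cdk4 and Cdkn1b were above 23 of the 25, and those of Ccnd2 and Cdkn1a above 22. Cdkn2c was above only 9 of the 25. Of the 24 S phase targets with a promoter window, 7 (29.2%) held an E2F site as defined above, as did Cdkn2c, against 6.34% of all genes with a window. The site was at least as frequent in some lists whose medians lay near 0. There it was found at 3 of 6 genes with a window for cyclin E, Cdk2 and CDK activation, 5 of 12 for pocket proteins and E2F factors and 7 of 23 upstream of the D cyclins and inhibitors. It was less frequent in the other lists, at 3 of 14 for turnover, 1 of 7 for BTG and TOB factors, 1 of 13 for p53 targets and 1 of 4 for other inhibitors. The site was thus not particular to the S phase targets or to Cdkn2c. Measured S phase targets with a site ran from -1.07 (Uhrf1) to -0.25 (Pola1), and those without from -1.41 (Rrm2) to 0.01 (Mcm10), on the log2 scale.

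**Figure D4:**
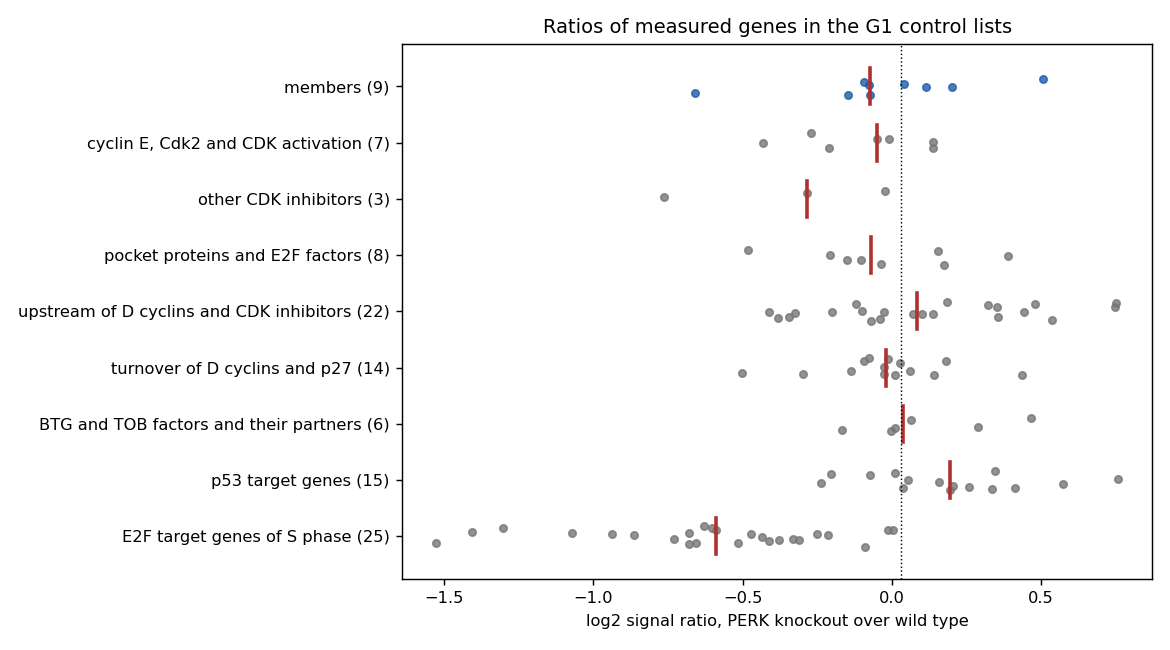
Log2 signal ratio of knockout over wild type for each measured gene (points, spread vertically only to separate them) of the member set and the 8 lists of G1 control, with the number measured in brackets, the list median as a red bar and the median of all measured genes, 0.03, as a dotted line. The E2F targets of S phase have a median of -0.59, and the medians of the members and the other lists lie between -0.28 and 0.19.

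Upstream of the D cyclins and the inhibitors, 2 of 22 measured genes were at least 1.5-fold higher and 0 were lower by that much, with a median of 0.09. Foxo3, a forkhead factor that induces p27 in many cells, went from 249.0 to 419.2 (1.68-fold higher), with 0.27 on its second probe set. Kmt2a, which encodes the histone methyltransferase MLL1 that works with menin on inhibitor genes, went from 174.7 to 293.5 (1.68-fold higher), with 0.40 on its second. With the median of each gene's probe sets in place of the brightest, both fell short of 1.5-fold and 0 of the list were that far apart. Myc, which binds E-boxes and is known to drive Cdk4, was next to the floor on both arrays (37.7 and 39.9). Irs2, an adaptor of the insulin receptor, went from 63.7 to the floor and was at least 1.60-fold lower.

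Of 3 measured inhibitors outside the member set, Cdkn2b (p15) was 1.70-fold lower, from 74.4 to 43.8, the latter close to the floor. Cdkn2d (p19), another INK4 inhibitor, had a log2 ratio of -0.28 (198.2 to 162.8) and the imprinted Cdkn1c (p57) of -0.02. Cdkn2b no longer counted as 1.5-fold lower with the floor at the 60th percentile, or when a pseudocount replaced it. The 3 measured INK4 genes, Cdkn2c included, had ratios below 0, as had 45.1% of all measured genes, and Cdkn2a was at the floor on both arrays (12.0 and 14.3). In each of the 3 a single probe set gave the value.

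In the list of cyclin E, Cdk2 and CDK activation, 0 of 7 measured genes were 1.5-fold apart and the median was -0.05. Its brightest members were Cdc37, the chaperone that loads Cdk4 (0.14), and Ccnh, the cyclin of the CDK-activating kinase (-0.01). Other probe sets of Ccnh had 0.07 and 0.32. Of 8 measured pocket proteins and E2F factors, 0 were 1.5-fold apart and the median was -0.07, with Tfdp1, the dimer partner of E2F, at -0.15 and E2f5 at 0.18 (0.68 on its second probe set). E2f8, an E2F that represses transcription, went from 97.5 to the floor and was at least 2.45-fold lower. Of 14 measured genes of D cyclin and p27 turnover, 0 were 1.5-fold apart and the median was -0.02. The brightest were Cks1b, the cofactor that presents p27 to its ubiquitin ligase (1500.8 to 1060.4, log2 ratio -0.50, and -0.55 on its second probe set), and Skp1, a subunit of that ligase (-0.30, and 0.00 on its second).

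The lists closest to Cdkn1a and Btg1 held few genes past 1.5-fold. Of 15 measured p53 targets, 12 were above 0, as were 4467 of all 8133 measured genes, and 1 was at least 1.5-fold higher, with 0 lower by that much and a median of 0.19. That gene was Gadd45b, a stress-induced growth arrest factor (139.2 to 235.5, 1.69-fold higher, with 0.26 and 0.56 on its other probe sets), and it was under 1.5-fold by the median over its probe sets. The brightest of the list were Ei24 (-0.20) and Gadd45g (0.16). Of the 13 p53 targets with a promoter window, 6 held a p53 half-site, as did Cdkn1a, against 8.20% of all genes with a window. Of 6 measured BTG and TOB factors and partners, 0 were 1.5-fold apart and the median was 0.04. The arginine methyltransferase Prmt1, a Btg1 partner, had a log2 ratio of -0.17, and Btg2 of 0.01 with 0.32 on its second probe set.

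Markers of some other cells also differed between the 2 arrays, and their part in the ratios of the members was not tested. Of 15 measured immune markers, 15 were above 0 and 11 were at least 1.5-fold higher. The summed signal of the 18 went from 1858 to 4489, with Ptprc, the pan-leukocyte marker, at the floor in the wild type only (29.9 and 57.4) and Itgam at the floor on both arrays. Much of that rise came from genes abundant in neutrophils, S100a8 (98.9 to 788.8, 7.98-fold higher), S100a9 (120.8 to 778.3), Ngp (87.3 to 420.6) and Lcn2 (48.3 to 186.8). The macrophage marker Csf1r (308.9 to 323.7, 1.05-fold) and Fcer1g (93.0 to 108.4, 1.17-fold) had the lowest ratios of the list. Other macrophage markers were higher, among them C1qa (220.7 to 404.5, 1.83-fold), Adgre1 (52.9 to 84.9, 1.60-fold) and Cd68 (1.47-fold). The antigen presentation genes H2-Aa (2.01-fold) and Cd74 (1.54-fold) were higher too. The members with ratios above 0 were Ccnd3 and Btg1, both abundant in blood cells, and Ccnd1 and Rb1. The sign of Rb1 turned with the scaling, and the ratio of the brightest Ccnd1 probe set was under its error. Whether blood cells contributed to any member's ratio was not tested. Of 6 measured beta cell markers 5 were below 0, with 2 at least 1.5-fold lower, a median of -0.46 and a summed signal of 16479 against 14832. Of 5 measured markers of other islet cells, 5 were above 0, with a median of 0.23. The medians were 0.07 for 9 measured acinar, -0.00 for 5 duct, -0.12 for 10 endothelial, -0.07 for 12 mesenchymal, 0.37 for 5 Schwann and neuronal and -0.19 for 2 red blood cell markers. Of the markers of the labelled tissue, Ins2 was bright on both arrays (5652 and 6163), as were Gcg and Sst, and so was the acinar marker Ctrb1 (7076 and 7178).

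**Figure D5:**
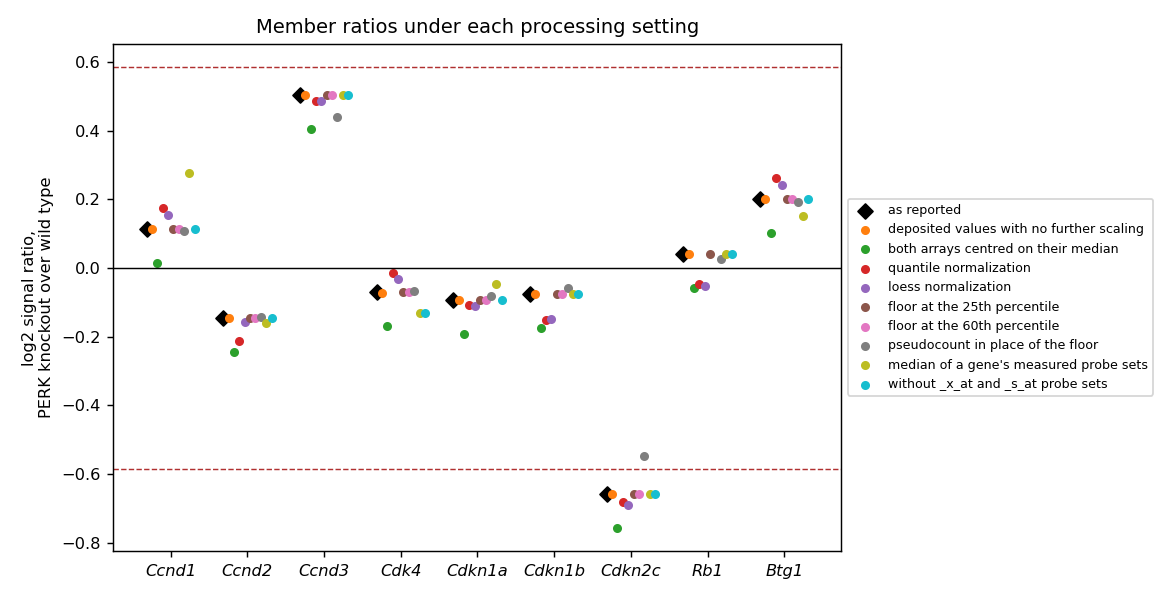
Log2 signal ratio of knockout over wild type of each measured member (columns) as reported (black diamonds) and under 9 alternative processing settings (coloured circles), with dashed lines at 1.5-fold. Rb1 is the only member whose points lie on both sides of 0, and Cdkn2c lies inside the dashed lines under the pseudocount alone, at -0.55.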

How the data were processed

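Islet RNA was labelled as biotinylated cRNA with an Ambion kit and hybridised to Affymetrix arrays, per the labels' protocols. The deposited file holds 1 intensity per probe set on a linear scale, made by the authors, and GCOS 1.02 is the tool in the submitters' processing notes. How probes were summarised and background was corrected was not stated there. The 2% trimmed mean was 150.1 for either genotype, which shows scaling to a shared target by the authors.

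From these intensities, the arrays were matched on the 2% trimmed mean, signals were floored at the 40th percentile (39.8) and log2 ratios of knockout over wild type were taken. Gene symbols came from the platform annotation: 20380 probe sets had 1 symbol, 691 had several and 1555 were unnamed here, and control probe sets were left out. Of the 12393 genes, 8133 were measured, 693 were above the floor on only 1 array and 3567 were at the floor on both. The floor gives bounds ("at least N-fold"). A single symbol of the lists, Skp1a, was updated through RefSeq. Python 3.11.15 with numpy 2.4.6, pandas 2.3.3 and statsmodels 0.14.6 was used, and the procedure was tested on simulated data.

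The number of arrays, 1 per genotype, limits every value. Called means at least 1.5-fold or 2-fold apart. Named genes are all members, Eif2ak3, and in each list up to 4 measured genes per direction at least 1.5-fold apart, joined by the 2 brightest where fewer than 2 were that far apart. Bounds, genes at the floor and others were named after their values were seen. The members and lists were chosen with earlier results of these data known. Only the E2F motif was planned, and the E-box and p53 motifs were picked from several after their matches were seen. The settings tried instead were no further scaling, centring on the median, quantile normalisation, loess, other floors, a pseudocount, the median over probe sets, and leaving out _x_at and _s_at probe sets.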

Additional observations from a re-analysis of the deposited data

How the results depend on the processing

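Over the reported settings and 9 alternatives, Ccnd1, Ccnd3 and Btg1 kept log2 ratios above 0 and Ccnd2, Cdk4, Cdkn1a, Cdkn1b and Cdkn2c kept ratios below 0. Their ranges were 0.01 to 0.28 for Ccnd1, 0.41 to 0.50 for Ccnd3, 0.10 to 0.26 for Btg1, -0.24 to -0.14 for Ccnd2, -0.17 to -0.02 for Cdk4, -0.19 to -0.05 for Cdkn1a, -0.18 to -0.06 for Cdkn1b and -0.76 to -0.55 for Cdkn2c. Several of these settings could hardly move those ratios, so the kept signs say little there. The arrays already shared a scale (factor 1.00001), and a floor leaves signals above it as they are. Leaving out _x_at and _s_at probe sets changed only the Cdk4 ratio. The floor at the 60th percentile left Rb1 with no value. The median of the members ranged from -0.17 to -0.05. With the pseudocount, which compresses ratios by construction, 0 members were at least 1.5-fold lower in place of 1, as were 7 S phase targets in place of 13. Their median ranged from -0.69 to -0.46. Of the other list medians, 3 turned sign. That of pocket proteins and E2F factors reached 0.17 with the floor at the 60th percentile, which leaves fewer genes measured, and with both arrays centred on their median that of the upstream list went from 0.09 to -0.01 and that of the BTG and TOB list from 0.04 to -0.06. Of the 4 calls at 1.5-fold in the lists other than S phase targets, Foxo3, Kmt2a and Gadd45b were lost with the median over probe sets, and Cdkn2b with the floor at the 60th percentile and with the pseudocount. These lists also gained calls. The turnover list had 1 lower gene with median centring, and the upstream list 1 lower gene with the floor at the 25th percentile. Pocket proteins and E2F factors had 1 higher gene without _x_at and _s_at probe sets. Over all genes, the 240 at least 1.5-fold lower and 341 higher became 359 and 579 with the floor at the 25th percentile, 131 and 135 at the 60th, and 124 and 123 with the pseudocount. At 2-fold, 53 and 42 became 80 and 81, 28 and 13, and 24 and 15. The 2-fold higher genes were 25 with median centring, 27 with quantile normalisation and 26 with loess. No replicate could be left out, and no paired analysis was possible because each genotype has 1 array. Dim probe sets such as those of Rb1 and Cdkn1b have the larger error.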

Other observations

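Several G1 genes outside the naming rule, picked after their values were seen, had more than 1 reading or a neighbour on the same side. Cdk7, the kinase that activates Cdk4 and Cdk2, went from 258.8 to 192.0 (log2 ratio -0.43), with -0.55 on its second probe set. Of its partners, Ccnh had -0.01 on its brightest probe set and 0.07 and 0.32 on its others, and Mnat1 had 0.14. The probe sets of E2f1 disagreed, at 0.15 on the brightest (109.0 to 121.3) and -0.73 on the other. Rbl1 (p107), itself an E2F target, went from 105.7 to 75.7 (log2 ratio -0.48), while the related Rbl2 (p130) had -0.10. The cyclin E kinase complex was dim, with Ccne1 going from 68.6 to 56.8 (-0.27), Cdk2 from 74.6 to 64.4 (-0.21), and Ccne2 at the floor on both arrays.

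Sesn2, a stress-induced p53 and ATF4 target, went from 121.3 to 180.5 (log2 ratio 0.57), and Gadd45a from 42.9 to 57.1 (0.41), close to the floor. Tsc1 and Tsc2, the brake on mTOR signalling, had log2 ratios of 0.35 and 0.48, while Akt1 had -0.34 and -0.09 on its probe sets. Of the CCR4-NOT subunits that Btg1 binds, Cnot7 had 0.47 on its brightest probe set and values from -0.22 to 0.36 on its others.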
